A study of Mus musculus with 7 samples.

Results

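The 45 genes described here encode the enzymes and carriers that take glucose through glycolysis to pyruvate and lactate, bring pyruvate into the mitochondrion and run the citric acid cycle. They are listed by their place in these pathways, and the list was drawn up with earlier results of these data known. The members are the rows of the deposited table whose gene symbol is on the list, and all 45 of the 45 were found among 24346 genes. The table holds 7 libraries, each from the primary hippocampal neurospheres of 1 C57/BL6 mouse aged 2 months by its label, 4 control (WT_116, WT_213, WT_215 and WT_220) and 3 Med23 CKO (KO_117, KO_214 and KO_218). Med23 CKO mice carry Nestin-CreER and Med23 flox/flox, so that tamoxifen removes part of Med23, a subunit of the Mediator complex, from cells that express Nestin. The control littermates, labelled wild type, were Med23 flox/+ or Med23 flox/flox without the Cre, and which of these each control was is not given in the sources used here. Every mouse of both groups received tamoxifen by gavage, 200 mg/kg a day for 5 days, which the labels place at 2 months and the methods, for cultures, at 1 month. The neurospheres were grown in EGF and FGF and no sort is described, so cells without recombination may be among them.

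Glycolysis splits 1 glucose into pyruvate in the cytosol, and lactate dehydrogenase can turn that pyruvate into lactate, which leaves the cell through monocarboxylate carriers. Pyruvate that enters the mitochondrion is turned into acetyl-CoA by the pyruvate dehydrogenase complex, which pyruvate dehydrogenase kinases switch off, and acetyl-CoA is oxidised in the citric acid cycle. Neural stem and progenitor cells are known for high glycolysis and shift towards mitochondrial oxidation as they become neurons. Many glycolytic genes are known targets of hypoxia-inducible factor (HIF) and of Myc.

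Levels are in FPKM (fragments scaled to the length of the transcript and to the mapped fragments of the library), which is per length, so that levels of different genes can be set beside each other. The number of reads behind a value is unknown, and the precision rests on the 7 libraries. Med23 was at 9.97, 9.27 and 8.12 FPKM in KO_117, KO_214 and KO_218 and between 10.1 and 12.9 FPKM in control, a log2 fold change of -0.26 (exact permutation test, two-sided, p = 0.0571), in reads over the whole gene and not only the removed exons. The neural stem cell markers Nes and Sox2 were present in all 7 libraries, at no less than 61.1 and 69.4 FPKM. The summed level of 14 microglia and macrophage markers was 1336 FPKM in KO_214 and between 58.5 and 336 FPKM in the others, and none of these markers was at 0 in any library. In these bulk samples, fewer cells of a type and less RNA per cell cannot be told apart.

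For none of the 45 genes did a difference between Med23 CKO and control pass the test, which does not show that their levels were equal. All 45 passed the filter of a mean of at least 0.5 FPKM over the 7 libraries, and 0 of them had an adjusted p under 0.05 in limma's moderated test on log2(FPKM + 1), where 0% of the 14151 genes tested did. At an unadjusted p under 0.05, 0 members were higher and 0 lower, beside 0.502% higher and 0.996% lower of all genes tested. For 0 members did the 3 Med23 CKO values lie all above the 4 control values, or all below them, beside 0.784% and 1.53% of all genes. The smallest unadjusted p among the members was 0.0903 (adjusted p = 1 in limma), that of the glucose carrier Slc2a1.

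The mean log2 value was higher in Med23 CKO for 43 of the 45 genes, with a median log2 fold change of 0.20, where 6196 of all 14151 genes were higher and their median was -0.03. The median was 0.49 for the 4 carriers, 0.38 for the 8 genes of upper glycolysis, 0.38 for the 6 of lower glycolysis, 0.18 for 7 genes of pyruvate import and conversion and 0.11 for 14 of the citric acid cycle. The median moved with single libraries. Without KO_117, the median over the 45 genes was 0.03 and that of the 14 glycolytic enzymes was -0.13. Without control WT_220, the median of these 14 enzymes was 0.72, and without KO_218 it was 0.74. The median of the carriers was 0.15 and that of the citric acid cycle genes 0.02 without KO_117, and that of pyruvate import and conversion was 0.05 without KO_218. With WT_220 and KO_117 both left out, a choice made after the data were seen, 33 of the 45 were higher, with a median of 0.16. Of all 14151 genes, 5981 were then higher, with a median of -0.06. The median was 0.27 for the 14 enzymes, of which 12 were higher and 2 lower. For the 14 citric acid cycle genes it was 0.06, with 8 higher and 6 lower.

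**Figure D1:**
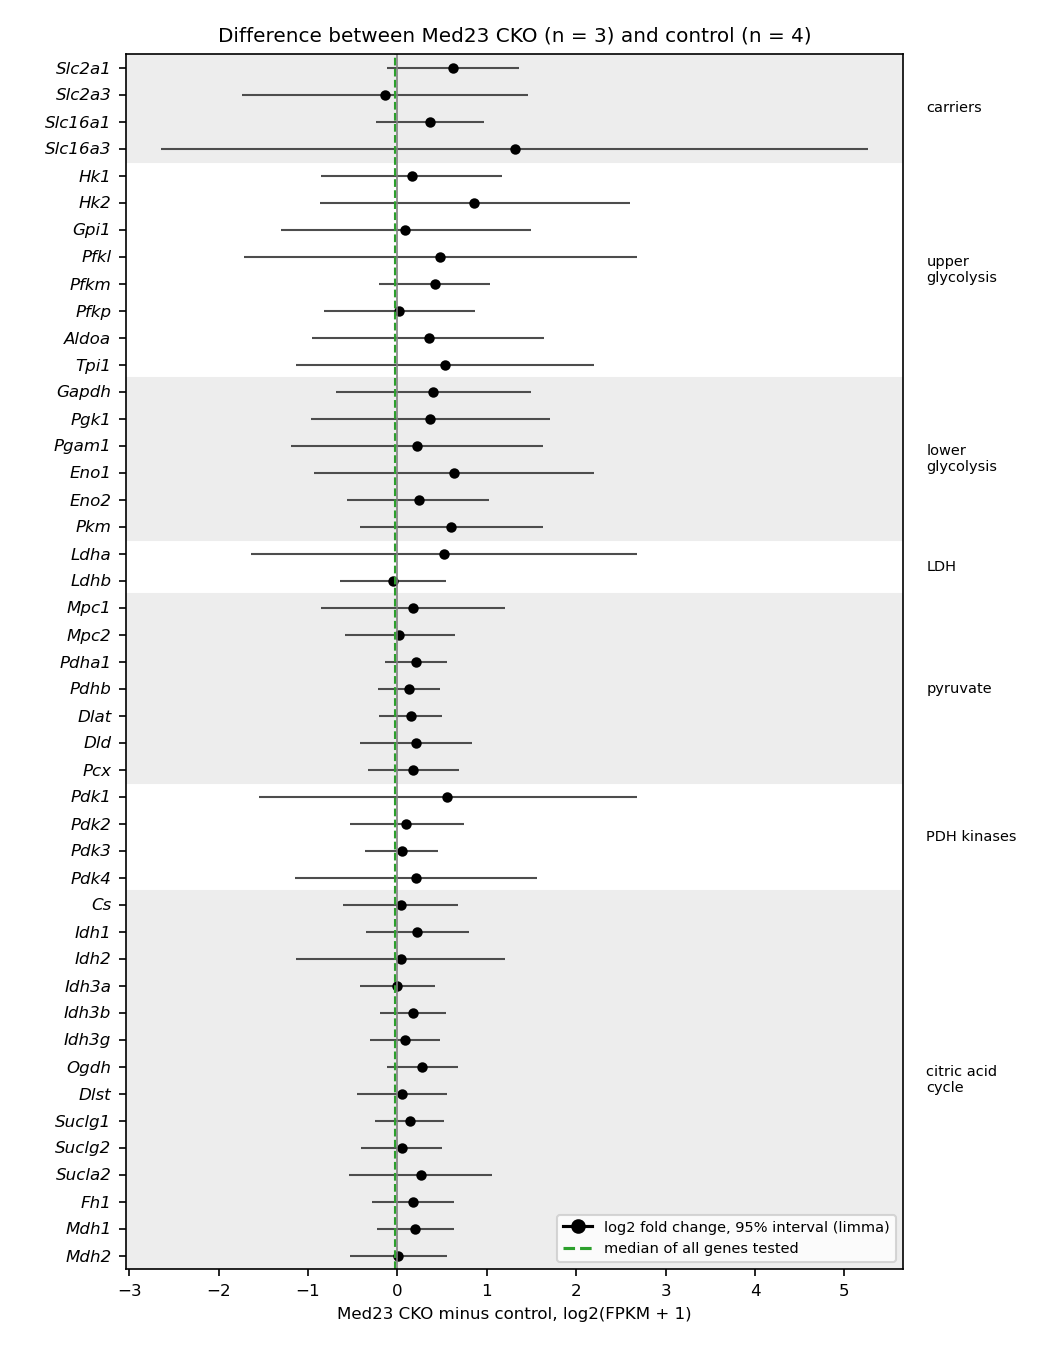
Difference between Med23 CKO (3 libraries) and control (4 libraries) for each of the 45 genes, in log2(FPKM + 1), with its 95% interval from limma; shaded bands separate the roles. All 45 intervals cross 0, and they are widest for Slc16a3 (from -2.64 to 5.26) and narrow for the pyruvate dehydrogenase subunits such as Dlat (from -0.20 to 0.50).

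The intervals tell the roles apart more than the means do. The spread between libraries of the same genotype, as the residual SD of log2(FPKM + 1), had a median of 0.88 over the 14 glycolytic enzymes, at the 88.3rd percentile of all genes tested, and of 0.23 over the 14 citric acid cycle genes, at the 22.4th percentile. The highest of the 7 values was 2.4 to 10.7 times the lowest for the glycolytic enzymes and 1.39 to 3.87 times for the citric acid cycle genes.

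A single library of each genotype stood apart in most of the 14 glycolytic enzymes on the list. Control WT_220 and Med23 CKO KO_117 held the 2 highest of the 7 values for 12 of the 14 glycolytic enzymes and for 22 of the 45 genes, where they did for 22.4% of all genes tested. For 11 of the 45 genes, WT_220 was at least 2 times the next control and KO_117 at least 2 times the next Med23 CKO library, which was so for 0.65% of all genes tested. These 11 were Slc2a3, Slc16a3, Hk2, Gpi1, Pfkl, Tpi1, Pgk1, Pgam1, Eno1, Ldha and Pdk1. The criterion was set after these values were seen. Summed over the 14 enzymes, glycolysis held 10151 FPKM in WT_220 and 12463 FPKM in KO_117, or 1.86% and 2.29% of the FPKM of the whole library. In the 5 other libraries it held between 3054 FPKM (0.628%) in WT_116 and 5396 FPKM (1.01%) in KO_214.

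**Figure D2:**
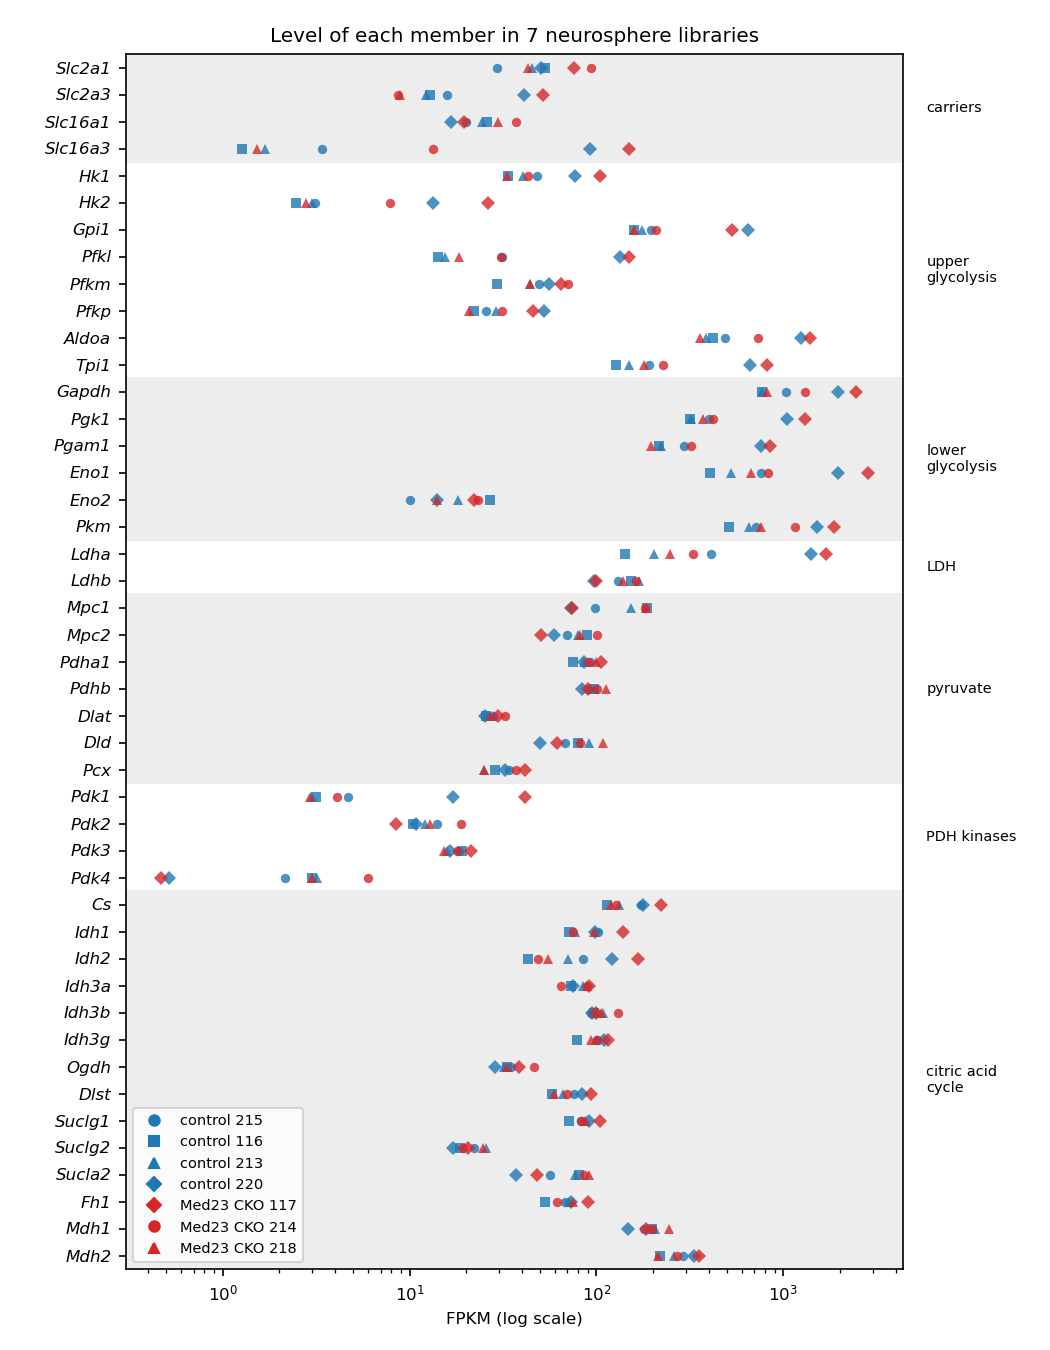
FPKM of each of the 45 genes (log scale) in the 7 libraries, controls in blue and Med23 CKO in red, with diamonds for control WT_220 and Med23 CKO KO_117. The diamonds stand to the right of all other points for most glycolytic enzymes, Ldha, Slc16a3 and Pdk1, while they lie to the left for Ldhb, Mpc1 and Pdk4. Among the 14 citric acid cycle genes, KO_117 was highest for 9, and the diamonds were the 2 highest for 6, with smaller gaps. Of all 14151 genes tested, these counts were 3343 and 3171, and both libraries were the lowest of their genotype for 4473.

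**Figure D3:**
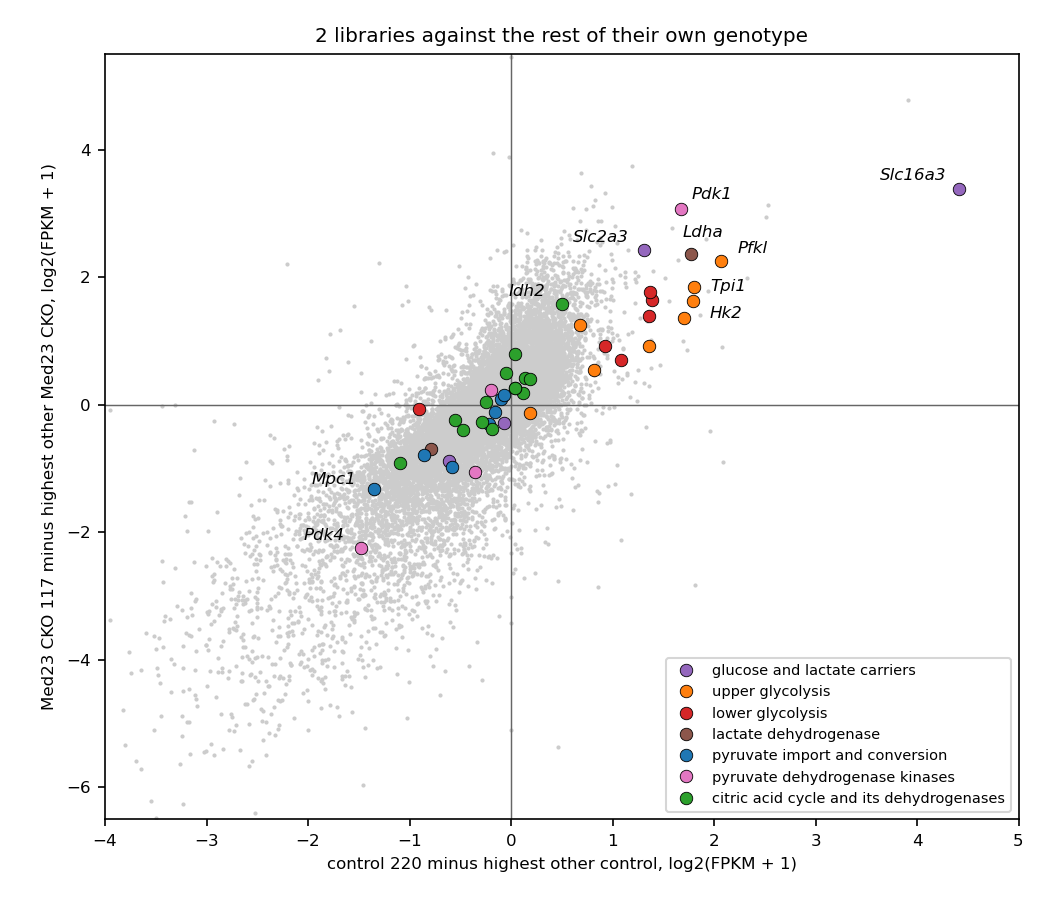
For each gene tested (grey; 14120 of 14151 lie within the axes) and each member (coloured by role), the log2(FPKM + 1) of control WT_220 minus the highest other control (horizontal) and of Med23 CKO KO_117 minus the highest other Med23 CKO library (vertical). Slc16a3, Pfkl, Ldha, Tpi1, Hk2, Pdk1 and Slc2a3 lie at the upper right edge of all genes, citric acid cycle genes near the centre, and Mpc1 and Pdk4 at the lower left.

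Values below are given in the order WT_116, WT_213, WT_215 and WT_220 for control and KO_117, KO_214 and KO_218 for Med23 CKO. Among the carriers, Slc16a3, the monocarboxylate carrier MCT4 known for export of lactate from glycolytic cells, moved most. It was at 1.27, 1.69, 3.42 and 92.9 FPKM in the controls, against 149, 13.3 and 1.53 FPKM in the CKO mice. WT_220 was 27.2 times the next control and KO_117 11.2 times the next Med23 CKO library, and the highest value was 117.4 times the lowest. Its log2 fold change of 1.31 had a standard error of 1.69 (p = 0.543 by exact two-sided permutation), and leaving out KO_117 gave -0.24. Slc16a1, the related and more widely used carrier MCT1, ran from 16.6 to 25.9 FPKM in the controls, against 19.6 to 37.2 FPKM in the CKO mice, with its lowest value in WT_220. Slc2a3, the glucose carrier GLUT3 known from neurons, was at 12.9, 12.3, 15.8 and 40.8 FPKM in the controls, against 52.1, 8.73 and 8.92 FPKM in the CKO mice. Its 2 other Med23 CKO values were below all controls. With WT_220 and KO_117 left out, a choice made after the data were seen, its log2 fold change was -0.57 (limma, unadjusted p = 0.0358, adjusted p = 0.867). In that fit it was the only member past an unadjusted p of 0.05, where 1.51% of all genes passed as lower. Slc2a1, the glucose carrier GLUT1, was not highest in WT_220 and KO_117. It was at 53.1, 45.1, 29.3 and 50.7 FPKM in the controls, against 75.7, 93 and 43 FPKM in the CKO mice, for a log2 fold change of 0.62 (95% interval -0.12 to 1.36, exact permutation p = 0.229).

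The first steps of glycolysis trap and rearrange glucose. Hexokinase Hk1 was the more abundant hexokinase in all 7 libraries, at 33.1 to 104 FPKM, against 2.46 to 26.3 FPKM for Hk2, the inducible form. Hk2 was at 2.46, 3, 3.11 and 13.3 FPKM in the controls, against 26.3, 7.83 and 2.81 FPKM in the CKO mice, for a log2 fold change of 0.86 (standard error 0.74). Gpi1, glucose-6-phosphate isomerase, was at 158, 175, 197 and 645 FPKM in the controls, against 533, 208 and 158 FPKM in the CKO mice, and was the gene of upper glycolysis besides Pfkp whose highest value was in a control. Its log2 fold change was 0.09 (95% interval -1.30 to 1.49).

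Phosphofructokinase, the main point of control in glycolysis, has 3 subunit genes that differed in their spread. Pfkl, the liver form, was at 14.2, 15.5, 31.3 and 134 FPKM in the controls, against 150, 30.8 and 18.3 FPKM in the CKO mice, so that its highest value was 10.6 times its lowest. Pfkm, the muscle form, lay within 29.4 to 56 FPKM in the controls, against 44.3 to 70.4 FPKM in the CKO mice, and its highest value was in KO_214. Pfkp, the platelet form, lay within 22 to 52.3 and 20.7 to 46 FPKM. In WT_220 and KO_117 Pfkl was the most abundant of the 3, whereas in each of the 5 other libraries Pfkm was.

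Aldoa, the aldolase that cuts the 6-carbon sugar, was at 422, 388, 485 and 1242 FPKM in the controls, against 1384, 731 and 360 FPKM in the CKO mice. Tpi1, triose-phosphate isomerase, was at 127, 149, 191 and 667 FPKM in the controls, against 820, 227 and 179 FPKM in the CKO mice. Both had their 2 highest values in WT_220 and KO_117, and their log2 fold changes of 0.35 and 0.53 had standard errors of 0.56 and 0.71.

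Lower glycolysis, which yields ATP, held the most abundant members. Gapdh, which oxidises the triose and is often used as a reference gene, was at 769, 766, 1031 and 1965 FPKM in the controls, against 2463, 1308 and 814 FPKM in the CKO mice. Its highest value was 3.21 times its lowest, and its log2 fold change was 0.40 (standard error 0.47). Pgk1, phosphoglycerate kinase, was at 318, 321, 399 and 1042 FPKM in the controls, against 1301, 418 and 372 FPKM in the CKO mice. Pgam1, the mutase of the next step, was at 216, 222, 295 and 757 FPKM in the controls, against 847, 321 and 195 FPKM in the CKO mice. Eno1, the general enolase, was at 403, 524, 761 and 1972 FPKM in the controls, against 2827, 828 and 675 FPKM in the CKO mice, and the log2 fold change was 0.63 (95% interval -0.93 to 2.20). Pkm, pyruvate kinase, was at 513, 655, 711 and 1512 FPKM in the controls, against 1873, 1149 and 762 FPKM in the CKO mice. For all 5 of these genes KO_117 was highest, followed by WT_220 and then KO_214. Eno2, the enolase known from neurons, was the exception, at 27, 18.2, 10.1 and 14 FPKM in the controls, against 22.2, 23.3 and 14.1 FPKM in the CKO mice, with its highest value in WT_116, the library with the lowest glycolytic sum.

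Several of these genes share sequence with copies elsewhere in the genome, which the authors' counting could divide. Of the 50-base stretches of the longest coding transcript in GENCODE M21, 82.5% for Gapdh, 72.2% for Eno1 and 68% for Pgk1 also occur in a transcript of another gene. In the table, the near copy of Eno1, Eno1b, was at 1.39 to 4.86 FPKM, and it too was highest in KO_117 and WT_220. Ldha shares 16.6% of its stretches and Tpi1 7.51%. Slc2a3, Slc16a3, Hk2 and Pdk1 share none, and neither do members that were not at least 2 times higher in both WT_220 and KO_117, such as Slc16a1, Pfkm, Dlat and Mdh2. The part of shared sequence in these levels was not tested.

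Ldha, the subunit that favours the turn of pyruvate into lactate, was at 143, 204, 408 and 1398 FPKM in the controls, against 1700, 328 and 248 FPKM in the CKO mice. Ldhb, the subunit that favours the reverse, was at 153, 169, 131 and 97.6 FPKM in the controls, against 99.2, 162 and 138 FPKM in the CKO mice, so that WT_220 and KO_117 were highest for the former and lowest for the latter. Within a library, log2(FPKM + 1) of Ldha minus that of Ldhb was -0.09, 0.27, 1.64 and 3.83 in the controls, against 4.09, 1.02 and 0.84 in the CKO mice. At these levels the ratio hardly depends on how a library was scaled, and it went from about equal levels in WT_116 to an excess of Ldha in KO_117.

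Of 8 such ratios between related genes, none differed between genotypes in exact permutation tests (two-sided, smallest p = 0.171, Benjamini-Hochberg adjusted over the 8 ratios p = 0.686), where 3 libraries against 4 allow a p no smaller than 0.0286. The ratio of Slc16a3 to Slc16a1 was -3.57, -3.24, -2.25 and 2.41 in the controls, against 2.86, -1.41 and -3.60 in the CKO mice, on the log2(FPKM + 1) scale. The order of the 2 carriers was thus turned in WT_220 and KO_117 alone among the 7 libraries. The ratio of Pdk1 to Pdk2 was turned in the same libraries, at 0.61 in WT_220 and 2.17 in KO_117 against -1.96 to -1.41 in the others. The ratio of Hk2 to Hk1 was highest in KO_117 (-1.95), followed by KO_214 (-2.32) and WT_220 (-2.45), and its mean was 0.71 higher in Med23 CKO (exact permutation p = 0.171). That of Eno2 to Eno1 was lowest in WT_220 (-7.04) and KO_117 (-6.93).

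**Figure D4:**
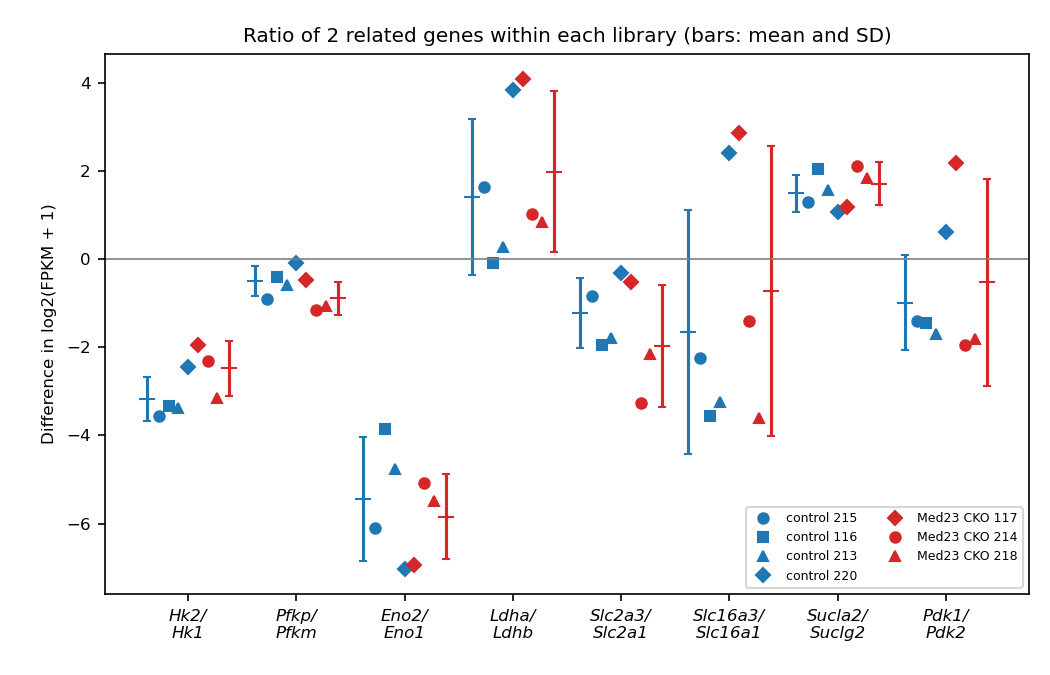
Log2(FPKM + 1) of the first gene minus that of the second, for 8 sets of related genes within each of the 7 libraries, with the mean and SD of each genotype as bars (control left, Med23 CKO right). The diamonds of WT_220 and KO_117 lie close to each other and apart from the rest for Ldha to Ldhb and Slc16a3 to Slc16a1, and the bars of the genotypes overlap for all 8.

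Promoters are shown for genes at least 2 times higher in both WT_220 and KO_117 (Slc16a3, Ldha, Pgk1 and Pfkl) and, for comparison, for the related genes Slc16a1 and Ldhb, which were not. The letters ACGTG are a form of the core of the element that HIF proteins bind, and they lie inside the E-box CACGTG that Myc and related factors bind. They were searched on both strands in the 250 bases before each RefSeq start site on GRCm38.p6, in which CACGTG counts as 1 match on each strand. At least 1 match was found in some window for 17 of the 43 members with a RefSeq window (39.5%), beside 24.6% of the 10700 tested genes with one, and for 6 of 14 glycolytic enzymes. Among the 11 genes at least 2 times higher in both WT_220 and KO_117, 10 had a window and 5 of these a match (Slc16a3, Hk2, Pgk1, Pgam1 and Ldha). Among the 34 others, 33 had a window and 12 a match. Shown are 100 bases upstream of 6 genes, 5′ to 3′ on the strand of the gene, with the matches in capitals, first the 2 lactate carriers, then the 2 lactate dehydrogenase subunits, then Pgk1 with and Pfkl without a match.
Slc16a3, chr11:120948967-120949066, forward: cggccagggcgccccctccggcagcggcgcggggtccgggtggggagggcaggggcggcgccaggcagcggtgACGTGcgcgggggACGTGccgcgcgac
Slc16a1, chr3:104638464-104638563, forward: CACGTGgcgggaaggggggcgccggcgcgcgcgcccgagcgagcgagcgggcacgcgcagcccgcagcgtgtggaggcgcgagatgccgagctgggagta
Ldha, chr7:46845704-46845803, forward: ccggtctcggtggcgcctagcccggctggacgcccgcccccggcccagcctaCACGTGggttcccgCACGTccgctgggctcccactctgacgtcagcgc
Ldhb, chr6:142507958-142508057, reverse: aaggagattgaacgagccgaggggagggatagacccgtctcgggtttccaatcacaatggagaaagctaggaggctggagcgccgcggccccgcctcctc
Pgk1, chrX:106186950-106187049, forward: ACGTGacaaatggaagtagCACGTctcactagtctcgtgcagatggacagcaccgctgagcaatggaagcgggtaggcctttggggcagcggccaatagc
Pfkl, chr10:78009808-78009907, reverse: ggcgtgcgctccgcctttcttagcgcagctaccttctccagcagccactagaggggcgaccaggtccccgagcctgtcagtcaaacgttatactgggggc

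Slc16a3 held 2 matches in its 250 bases, and so did Slc16a1, whose level was lowest in WT_220. Ldha held 5 and Ldhb 0, Pgk1 held 2, and Pfkl, with one of the largest differences between libraries, held 0. A match in these letters is a description of the window, and no match says only that they are not in it. The form GCGTG of the HIF core was not searched. It occurs within the 250 bases before the start site of Pfkl and of Slc16a1, so Pfkl is without a match for ACGTG only.

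The subunits of the mitochondrial pyruvate carrier were lowest in WT_220 and KO_117, and those of pyruvate dehydrogenase varied little. Being lowest there was common. WT_220 was the lowest control and KO_117 the lowest Med23 CKO library for 31.6% of all genes tested and 9 of the 45 members (20%). Mpc1, a subunit of the mitochondrial pyruvate carrier, was at 187, 154, 98.8 and 72.7 FPKM in the controls, against 73.8, 183 and 185 FPKM in the CKO mice, lowest in WT_220 and KO_117. Mpc2, its partner, was at 88.9, 79.6, 69.8 and 59.1 FPKM in the controls, against 50.7, 101 and 81.9 FPKM in the CKO mice, with the same 2 libraries lowest. The pyruvate dehydrogenase subunits were steady, with Pdha1 (E1 alpha) between 75.2 and 106 FPKM, Pdhb (E1 beta) between 83.5 and 112 FPKM and Dlat (E2) between 25.2 and 32.6 FPKM. Pdha1 averaged 85.1 ± 7.23 FPKM over the controls (SD, n = 4) and 98.6 ± 8.26 FPKM over the CKO mice (SD, n = 3), for a log2 fold change of 0.21 with a 95% interval from -0.14 to 0.56 (exact permutation p = 0.0857). Dlat had 26.7 ± 1.45 FPKM (SD, n = 4) and 29.8 ± 2.81 FPKM (SD, n = 3), a log2 fold change of 0.15. Dld (E3), which other dehydrogenase complexes share, ran from 50 to 108 FPKM, and Pcx, pyruvate carboxylase, which refills the cycle, from 25 to 41.5 FPKM.

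The pyruvate dehydrogenase kinases each had a pattern of their own. Pdk1, the kinase known as a HIF target, was at 3.15, 3.01, 4.66 and 17 FPKM in the controls, against 41.6, 4.08 and 2.94 FPKM in the CKO mice. KO_117 was 10.2 times the next Med23 CKO library and WT_220 3.66 times the next control, and the log2 fold change of 0.56 (standard error 0.91) was -0.52 without KO_117. Pdk4, the kinase known to rise in fasting, was at 2.99, 3.21, 2.15 and 0.514 FPKM in the controls, against 0.47, 6 and 3 FPKM in the CKO mice, so the same 2 libraries were lowest. Pdk2 was highest in KO_214 (18.8 FPKM) and lowest in KO_117 (8.45 FPKM), and Pdk3 stayed between 15.3 and 21.2 FPKM in all 7 libraries.

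In the citric acid cycle, 14 genes gave log2 fold changes between 0.00 and 0.28, with 14 of 14 not below 0, beside 6196 of all 14151 genes higher. Without WT_220 and KO_117, 8 of the 14 were higher and 6 lower. KO_117 was the highest library for 9 of the 14, beside 3343 of all 14151 genes. KO_117 and WT_220 held the 2 highest values for 6 (Cs, Idh2, Idh3g, Dlst, Suclg1 and Mdh2), beside 22.4% of all genes tested. Mdh2, the mitochondrial malate dehydrogenase and the most abundant of them, was at 219, 259, 290 and 331 FPKM in the controls, against 356, 269 and 214.04 FPKM in the CKO mice, and the log2 fold change was 0.01 (95% interval -0.53 to 0.55). Cs, citrate synthase, which starts the cycle, was at 114, 132, 173 and 177 FPKM in the controls, against 222, 127 and 120 FPKM in the CKO mice. Ogdh, the E1 subunit of 2-oxoglutarate dehydrogenase, had the largest log2 fold change, 0.28 (95% interval -0.12 to 0.68, exact permutation p = 0.0857), with 33.3, 32, 35 and 28.6 FPKM in the controls, against 38.4, 46.6 and 33.4 FPKM in the CKO mice. In 2 of 3 Med23 CKO libraries Ogdh was above all controls. Dlst, its E2 subunit, lay within 57.8 to 83.3 FPKM in the controls, against 59 to 93.2 FPKM in the CKO mice.

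Among the isocitrate dehydrogenases, the forms that yield NADPH varied more between libraries than the NAD-dependent enzyme. Idh2, the mitochondrial form that yields NADPH, varied most in the cycle, at 43.1, 70.2, 84.9 and 121 FPKM in the controls, against 167, 48.5 and 55.3 FPKM in the CKO mice, with KO_117 and WT_220 highest. The cytosolic NADPH form Idh1 ran from 71.5 to 138 FPKM. The 3 subunits of the NAD-dependent enzyme were steady, Idh3a at 64.7 to 91.1 FPKM, Idh3b at 93.2 to 130 FPKM and Idh3g at 79 to 115 FPKM, and the highest value of each was at most 1.45 times the lowest.

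Sucla2, the ATP-forming subunit of succinate-CoA ligase, was at 80.4, 77.2, 56.4 and 37.1 FPKM in the controls, against 47.8, 85.9 and 91.2 FPKM in the CKO mice, and so was lowest in WT_220 and KO_117. Its GTP-forming counterpart Suclg2 stayed between 17.1 and 25.6 FPKM, and the shared subunit Suclg1 between 71.2 and 105 FPKM. Fh1, fumarase, ran from 53.3 to 89.8 FPKM. Mdh1, the cytosolic malate dehydrogenase, averaged 182 ± 25.6 FPKM over the controls (SD, n = 4) and 209 ± 30.8 FPKM over the CKO mice (SD, n = 3), for a log2 fold change of 0.20 (95% interval -0.23 to 0.63).

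Outside the 45 genes, 44 further enzymes and carriers of the same pathways were followed, of which 39 passed the filter. Between genotypes 24 were higher and 15 lower, where 6196 of all 14151 genes were higher. The median log2 fold change of the 39 was 0.06, with 0 past an unadjusted p of 0.05 in either direction. None of the 39 was at least 2 times higher in both WT_220 and KO_117, beside 0.65% of all genes tested. These 2 libraries held the 2 highest values for 11 of the 39, beside 22.4% of all genes. Each was the lowest of its genotype for 16, beside 31.6%. Aldoc, a further aldolase gene picked after its values were seen, was at 86.1 FPKM in WT_220 and 56.2 FPKM in KO_117, its 2 lowest values. Its highest was 256 FPKM in KO_214. Gpd1, which joins glycolysis to lipid synthesis, was at 336, 180, 143 and 49.6 FPKM in the controls, against 24.6, 289 and 192 FPKM in the CKO mice, lowest in WT_220 and KO_117. Of 7 pentose phosphate genes, 6 were higher and 1 lower, with a median of 0.09 and 0 past an unadjusted p of 0.05. Taldo1, transaldolase, ran from 177 to 445 FPKM with its highest value in KO_214, and Tkt, transketolase, from 110 to 207 FPKM.

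Of 22 genes of the HIF pathway, 15 were higher and 7 lower in Med23 CKO, where 6196 of all 14151 genes were higher. The median log2 fold change of the list was 0.21. Without KO_117 this median was -0.18, without WT_220 it was 0.44, without KO_218 it was 0.50, and with WT_220 and KO_117 both left out it was 0.08. P4ha1, a collagen prolyl hydroxylase, was higher at an unadjusted p of 0.0485 (log2 fold change 0.64, adjusted p = 1 in limma), and 0 genes were lower. Of all genes tested, 0.502% passed as higher and 0.996% as lower. In this list 6 genes (Egln1, Egln3, Vegfa, Bnip3, Ankrd37 and Ak4) were at least 2 times higher in both WT_220 and KO_117, beside 0.65% of all genes tested. Others were not, such as Ndrg1, which was lowest in WT_220 (4.76 FPKM), Adm, which was highest in KO_214 (58.4 FPKM), and Ddit4, which was high in WT_220 (99.8 FPKM) and not in KO_117 (51.3 FPKM). The genes named in these 2 sentences were chosen after their values were seen. Vegfa, the vascular growth factor, was at 26.3, 30.4, 26.4 and 156 FPKM in the controls, against 168, 41.6 and 29.4 FPKM in the CKO mice. Bnip3, which acts in mitophagy, was at 47.1, 32, 21.7 and 126 FPKM in the controls, against 181, 38.7 and 41.4 FPKM in the CKO mice. Car9, a carbonic anhydrase, differed from these, at 1.38, 1.75, 0.822 and 1.71 FPKM in the controls, against 44, 2.05 and 1.8 FPKM in the CKO mice. All its Med23 CKO values were above all controls, which was so for 0.784% of all genes tested. The margin was small other than in KO_117, and the log2 fold change of Car9, 1.61, was 0.29 without that library.

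Markers of other cells and of division moved in part with the same libraries. Microglia and macrophage markers summed to 58.5 FPKM in WT_220 and 61.5 FPKM in KO_117, the 2 lowest sums, and 8 endothelial markers to 10.4 and 6.6 FPKM, against 10.5 to 123 FPKM in the others. Of 10 neural stem cell markers, the sum was 3899 and 3889 FPKM in these libraries, against 1776 to 3455 FPKM, but most of it was Vim and Fabp7 (1692 and 1518 FPKM in WT_220). The 2 libraries were the 2 highest for Nes, Sox2 and Vim, whereas Fabp7, Slc1a3, Egfr and Msi1 were highest in WT_215, and Prom1 was lowest in WT_220 and KO_117 (2.46 and 2.64 FPKM). Of 10 proliferation markers, it was 987 and 1279 FPKM there and 962 FPKM in WT_215, against 240.2 to 631 FPKM in the 4 others. The glycolytic sum was 4236 FPKM in WT_215 and 10151 FPKM in WT_220. The part of cell composition and of division in the levels of glycolytic genes was not tested.

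**Figure D5:**
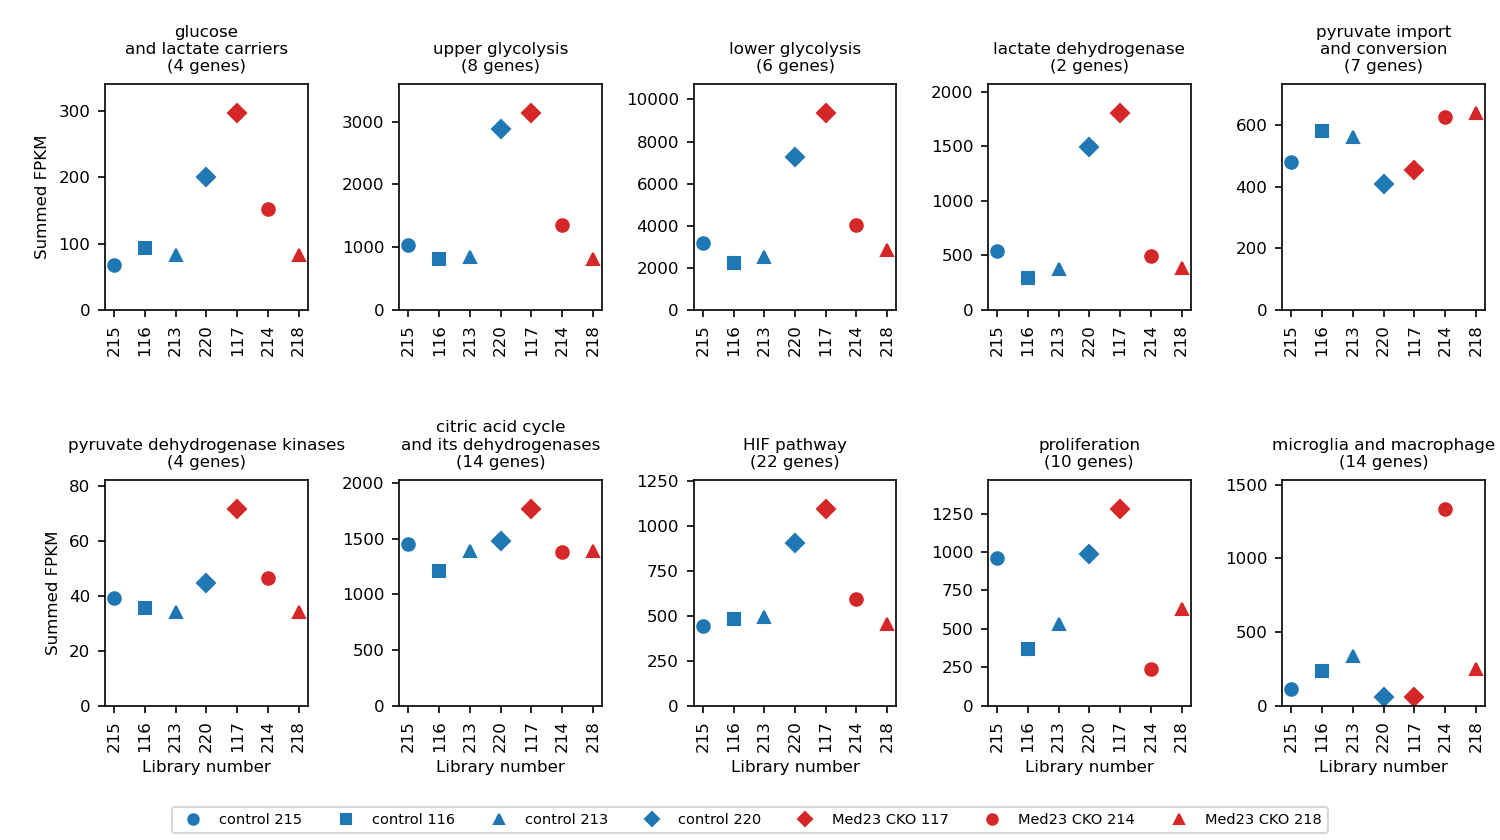
Summed FPKM of the genes of each role, of the HIF pathway and of 2 marker lists in the 7 libraries (vertical axes start at 0 and differ between panels), controls in blue and Med23 CKO in red. WT_220 and KO_117 stand out for carriers, glycolysis, lactate dehydrogenase and the HIF list, while the citric acid cycle stays between 1210 and 1768 FPKM in all libraries.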

How the data were processed

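Each of the 7 libraries came from cultured neurospheres of 1 mouse, and groups follow the sample titles. The authors trimmed adapters with cutadapt, mapped reads on mm10 using Tophat without changed settings, and obtained FPKM per gene from Cuffdiff. The FPKM values were used as deposited. Versions of Tophat and Cuffdiff and the annotation are not given in the sources used here. The group means and the authors' own comparison (fold change, test score, p-value and q-value) in the table were not used, and 0 columns belonged to other samples. No 2 libraries held identical values, and log2 values correlated between libraries at 0.788 to 0.979. The libraries are separate mice, so p-values measure the spread between mice.

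FPKM was put on the scale log2(FPKM + 1), which understates the change of low genes, and 14151 genes whose mean over the 7 libraries reached 0.5 FPKM were tested. Groups were compared with limma 3.58.1 in R 4.3.3 (eBayes with trend, two-sided), with Benjamini-Hochberg adjustment over all genes tested, and single genes and ratios also by exact permutation over the 35 ways to divide 7 libraries into 4 and 3. The fit was tested on simulated data. The members, gene lists and ratios were chosen with earlier results of these data known. Any member could be named, those with the 10 highest mean levels were given in every library, and genes of the 3 companion lists were named for an unadjusted p under 0.05, for groups that did not overlap or for the 2 highest mean levels in their list. A gene named by this rule is not reported here.

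Promoters and start sites are those of RefSeq on GRCm38.p6, matched by symbol for 43 of the 45 members. Shared sequence was counted in GENCODE M21 transcripts as exact matches of 50 bases. Alternatives were a pseudocount of 0.1, other filters, quantile and median scaling, other variance models, array weights, a covariate for the leading digit of the number in the library title, omission of single libraries and, chosen after the data were seen, omission of WT_220 and KO_117 together.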

Additional observations from a re-analysis of the deposited data

Results flagged for a closer look

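Among the 4 controls, the values of 54 items (the 45 genes, Med23 and 8 ratios, on the log2(FPKM + 1) scale) were examined for 1 library far from the other 3, by Dixon's ratio of the gap to the nearest library over the whole range. Chance passes about 1 in 20 such groups. For 3 items the ratio passed its 95% critical value for 4 samples, each time with control WT_220 high. For Hk2 the ratio was 0.877, with 13.3 FPKM in WT_220 against 2.46 to 3.11 FPKM in the other controls. For Gpi1 it was 0.843, with 645 FPKM against 158 to 197 FPKM. For the ratio of Pdk1 to Pdk2 it was 0.87, with 0.61 in WT_220 against -1.71 to -1.41. The 3 Med23 CKO libraries are too few for this rule.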

How the results depend on the processing

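No paired analysis was possible because the groups share no replicate numbers. No member passed an adjusted p of 0.05 in limma under any alternative, and over settings other than leaving out 1 library, 24 of 450 member fold changes reversed. At an unadjusted p of 0.05, 0.801% of the genes passed as higher and 1.12% as lower with no filter on low values, and 0 HIF pathway genes were higher, as without the trend or with the digit covariate. With array weights, whose iteration did not fully converge, 1.36% of the genes passed as higher and 6.27% as lower, 0 HIF pathway genes were higher and 1 lower, 1 other enzyme or carrier was lower, and the members' median was 0.07. The log2 fold changes that reversed with them were Slc16a3 (-0.07), Hk1 (-0.24), Gpi1 (-0.19), Pfkl (-0.07), Pfkp (-0.29), Aldoa (-0.14), Pgam1 (-0.25), Eno2 (-0.02), Pcx (-0.08), Pdk1 (-0.11), Pdk3 (-0.09), Cs (-0.19), Idh2 (-0.29), Idh3g (-0.02), Dlst (-0.15) and Mdh2 (-0.23). Without WT_220 and KO_117 together, 1.2% of the genes passed as higher and 1.51% as lower, 1 member (Slc2a3) was lower and 2 other enzymes or carriers were higher, and Hk1 (-0.09), Pdk1 (-0.02), Pdk3 (-0.09), Cs (-0.15), Idh2 (-0.29), Dlst (-0.05), Suclg2 (-0.01) and Mdh2 (-0.08) reversed. Leaving out each library in turn gave 0 to 1 genes higher past the adjusted threshold (1 without KO_214 and 1 without KO_218), 0.318% to 2.5% of the genes higher (0.318% without WT_215, 2.5% without KO_117) and 0.495% to 2.9% lower at the unadjusted one (0.495% without KO_218, 2.9% without KO_117), 0 to 1 members, 0 to 2 other enzymes or carriers and 0 to 2 HIF pathway genes higher, a members' median of 0.03 to 0.26 and a pentose phosphate median of -0.00 to 0.31. The ratios ran from -0.93 to 0.15 for Eno2 to Eno1, -0.48 to 1.38 for Ldha to Ldhb, -0.85 to 2.39 for Slc16a3 to Slc16a1 and -0.89 to 1.17 for Pdk1 to Pdk2. Of 315 member fold changes, 47 reversed, in 26 members with these ranges: Slc2a3 (-0.95 to 0.27), Slc16a3 (-0.24 to 2.71), Hk1 (-0.32 to 0.49), Gpi1 (-0.42 to 0.56), Pfkl (-0.39 to 1.17), Pfkp (-0.25 to 0.30), Aldoa (-0.13 to 0.84), Tpi1 (-0.14 to 1.06), Gapdh (-0.02 to 0.78), Pgk1 (-0.20 to 0.77), Pgam1 (-0.36 to 0.70), Eno1 (-0.01 to 1.10), Ldha (-0.33 to 1.18), Ldhb (-0.20 to 0.15), Mpc1 (-0.06 to 0.62), Mpc2 (-0.19 to 0.30), Pdk1 (-0.52 to 1.20), Pdk2 (-0.16 to 0.37), Pdk3 (-0.07 to 0.16), Pdk4 (-0.30 to 0.82), Cs (-0.24 to 0.20), Idh2 (-0.52 to 0.36), Idh3g (-0.01 to 0.15), Dlst (-0.13 to 0.20), Suclg2 (-0.05 to 0.15) and Mdh2 (-0.18 to 0.19). The causes were not tested. With 3 libraries against 4, an interval as wide as that of Slc16a3 leaves large differences between genotypes undetectable, and the read depth is unknown.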
